A study of Oryza sativa with 44 samples.

Results

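The comparison described here set 2 RNA libraries of osythdf2a, a rice knockout line made by CRISPR in a gene of the YTH family, against 3 libraries of the DJ wild type, whose name the osythdf2a labels also carry. They were taken by their column names, as every library of either group used here, and make up 5 of the 44 libraries and 2 of the 15 groups of the series. The question behind it was what loss of such a gene does to the levels of transcripts. All plants were seedlings of rice (Oryza sativa) raised for 2 weeks in nutrient solution. The knockout lines osythdf1a and osythdf3a, also labelled DJ and with 3 libraries each, shared the model fit and were set against osythdf2a directly. NIP, the other wild type of the series with 3 libraries, and the 10 lines labelled NIP served only to place the levels. Among these lines were the knockouts osythdf1b, osythdf1c, osythdf2b, osythdf3b, osythdf3c, osythdf4c and osythdf5c. The others were the RNAi lines RNAi-OsYTHDF2C and RNAi-OsYTHDC1A and the overexpression line OE-OsYTHDF1A. The labels name neither the organ nor the number of independent editing events. The series text calls the replicates biological without saying what separates them, so the p-values rest on the spread among these libraries only. An effect of the knockout and any other difference between the osythdf2a and DJ plants cannot be told apart.

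YTH proteins are readers of RNA methylation. Their YTH domain holds a methylated adenosine in a pocket, and proteins of the YTHDF type act mainly in the cytoplasm, where they affect the stability and translation of bound messengers. In Arabidopsis, the YTHDF-type ECT proteins are needed for normal timing of leaf formation and for organ growth. The deposited tables list genes by MSU locus ID without names, and the reference tables paired 1 ID with a name. The transcript of the edited gene, other YTH genes, markers of tissue and the genes of known pathways were therefore not analysed here. Loci are described by their levels, their place in the locus order and their standing among the other groups, and no sequence is shown.

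Library totals were 15808233 and 21022086 counts in osythdf2a and 16389439 to 18578768 counts in DJ. The osythdf2a libraries had 24116 and 23899 features at 1 CPM or more (CPM, counts scaled to the library total), the DJ libraries 23065 to 23158, and the other 39 libraries 20711 to 23509. The osythdf2a libraries thus stood above all others of the series in the number of features at that level. The 10 most counted features took 3.48% of the counts in each osythdf2a library and 4.1% to 4.3% in the DJ libraries. Replicates differed by more than counting noise, with a chi-square per degree of freedom of 2.41 in osythdf2a and 1.9 to 3.18 in DJ, and none were merged. Among genes with a mean of 1 CPM or more over the pair, 0.291% differed over 2-fold between the 2 osythdf2a libraries. Between pairs of DJ libraries the share of such genes was 0.363% to 0.631%. Genes under 1 CPM were left out of these shares, which therefore do not give the spread of replicates there. In osythdf3a, replicate 3 stood apart from its replicates, with 16.3% of its counts in 10 features.

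Many genes differed between osythdf2a and DJ, most of them by little. Of 26925 genes tested, 13956 were called (51.8%), with edgeR's quasi-likelihood test at a Benjamini-Hochberg adjusted p under 0.05; all adjusted p-values are of this kind unless another tool is named. The median size of a called change was 1.403-fold, and 57.21% of called genes changed less than 1.5-fold. Changes of at least 2-fold were called in 3226 genes (12.0%), of which 2125 were higher in osythdf2a (7.89%) and 1101 lower (4.09%). At 8-fold or more, 360 genes were higher and 71 lower. These genes were called against no change and had a fitted change of that size. EdgeR's test against a 2-fold minimum, which asks for a change beyond 2-fold, called 1328 genes. In seedlings, which hold many cell types, fewer cells of a type and less RNA per cell cannot be told apart.

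The direction of the small changes depended on the scaling. With TMM factors over the 11 libraries labelled DJ, 5627 genes were higher in osythdf2a (20.9%) and 8329 lower (30.9%), and the median log2 fold change of all genes tested was -0.066. Scaled by library totals, the split was 6631 higher and 4895 lower, and in a fit of the 5 libraries alone 6952 were higher and 6672 lower. The TMM factors were 1.167 and 1.164 for the osythdf2a libraries and 1.086 to 1.088 for the DJ libraries. The excess of higher over lower genes among changes of at least 2-fold held under these scalings, with 2417 higher and 856 lower by library totals, and 2266 higher and 905 lower in the fit of the 5 libraries.

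**Figure D1:**
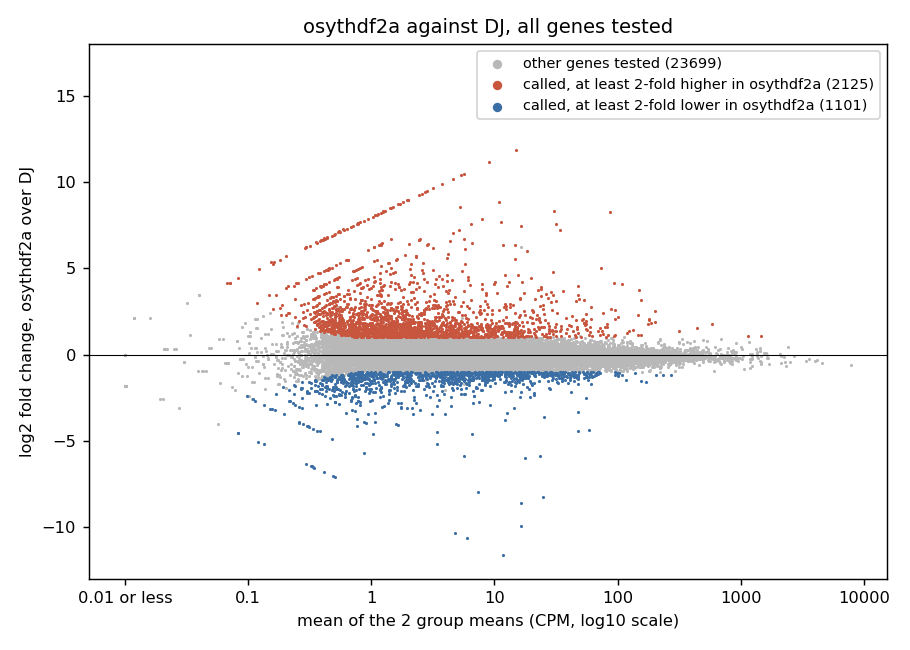
Each point is 1 of the 26925 genes tested, with the mean of the osythdf2a and DJ group means in CPM on a log10 x axis and the fitted log2 fold change of osythdf2a over DJ on the y axis. Of the coloured genes, called with at least 2-fold change, 2125 lie above 0 and 1101 below, and most lie to the left.

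Large changes fell mainly on genes with few reads. Among 3214 genes whose mean over the 5 libraries was under 1 CPM, 23.9% were at least 2-fold higher in osythdf2a and 8.28% lower. Among 3826 genes at 1 to 3 CPM these shares were 18.1% and 6.38%, and among 5365 genes at 3 to 10 CPM they were 7.59% and 5.13%. From 10 CPM upward lower genes were about as many as higher ones or more, except at the top. The shares were 2.7% higher and 2.94% lower at 10 to 30 CPM, 1.06% and 1.82% at 30 to 100 CPM, and 0.942% and 0.694% among the 2016 genes at 100 CPM or more. The share called at any size rose with the level over the same groups of genes, being 33.1% under 1 CPM and 74.8% at 100 CPM or more. Under 1 CPM 1065 genes were called, 767 of them at least 2-fold higher and 266 lower, so nearly every call there was of a large fitted change. At 100 CPM or more 1508 were called, 19 of them at least 2-fold higher and 14 lower. The part of the lower precision of small counts in the 2-fold shares was not tested. The mean over the 5 libraries holds 3 of DJ and 2 of osythdf2a. It therefore places a gene present only in osythdf2a lower than one equally high only in DJ. Genes could also pass the filter on low counts through the 2 osythdf2a libraries alone. The part of this grouping and of the filter in the split by direction was not tested.

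The middle of the distribution moved with the level too, over the same groups of genes and with the same limits. The median log2 fold change of osythdf2a over DJ was 0.30 under 1 CPM, 0.14 at 1 to 3 CPM, -0.02 at 3 to 10 CPM and -0.13 at 100 CPM or more, on the TMM scale. By gene length, 11.4% of genes in the shortest of 4 equal groups (138 to 1121 bases) were at least 2-fold higher and 5.45% lower. In the longest group (2472 to 16549 bases) 6.14% were higher and 3.36% lower.

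**Figure D2:**
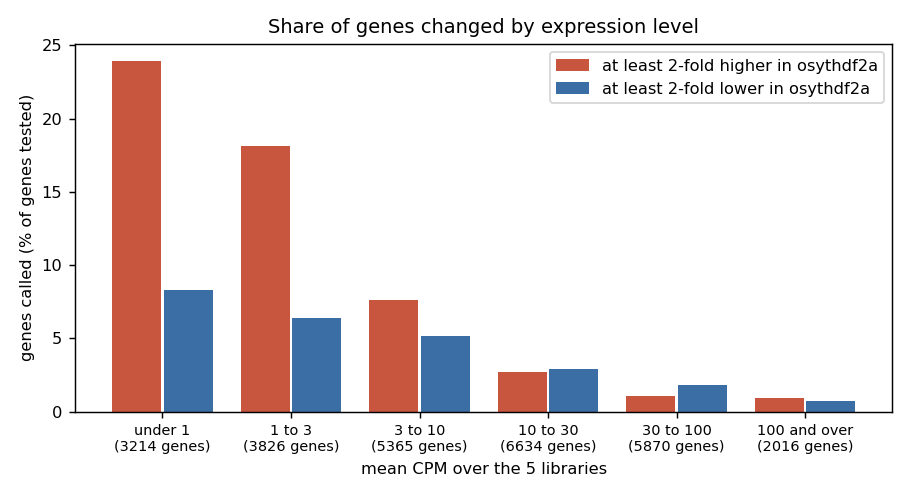
Bars give the percentage of tested genes called at least 2-fold higher or lower in osythdf2a than in DJ, for 6 groups of genes by their mean CPM over the 5 libraries. The share of higher genes is 23.9% under 1 CPM and 0.942% at 100 CPM or more.

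Among features with a locus ID and at least 5 CPM in the higher group, the largest rises were of loci without a single count in DJ. LOC_Os10g40240 had 30.4 and 29.1 CPM in the osythdf2a libraries, against 0 in all 3 DJ libraries. Both osythdf2a libraries stood far above every other library of the series, since the highest mean of another group was 0.0609 CPM, in osythdf3a. Over the group, 1092 counts in osythdf2a against none in DJ put the rise at at least 526-fold, taking 3 counts over the group as the floor (edgeR adjusted p = 9.2e-32). LOC_Os10g20280 had 17.5 and 18.8 CPM in osythdf2a, against 0 in all 3 DJ libraries, at least 324-fold higher (edgeR adjusted p = 2.1e-31). This locus was higher still in osythdf3a, at 29.2 ± 3.2 CPM (SD, n = 3), and osythdf2a was below osythdf3a by a log2 fold change of -1.03 (standard error 0.09, edgeR adjusted p = 4.4e-14).

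The largest falls by the same rule were of 1 locus without a count in osythdf2a and 1 with few. LOC_Os01g49050 had no count in either osythdf2a library, against 10.8, 12.4 and 12.6 CPM in the DJ libraries, at least 147-fold lower (edgeR adjusted p = 1.8e-23). DJ was the group that stood apart at this locus, since the highest mean of the other 13 groups was 0.0377 CPM. LOC_Os10g24004 had 0.19 and 0.143 CPM in osythdf2a, against 48.6, 50.5 and 49.7 CPM in DJ, a log2 fold change of -8.28 (standard error 0.19, edgeR adjusted p = 2.7e-39). It was likewise low in osythdf1a, at 0.214 CPM on average, and stood at 25.4 ± 3.9 CPM in osythdf3a (SD, n = 3).

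Among genes with at least 100 CPM in the higher group, 2 rises and 2 falls led. LOC_Os10g28710 had 171 and 175 CPM in osythdf2a, against 0.549, 0.548 and 0.484 CPM in DJ, a log2 fold change of 8.24 (standard error 0.08, edgeR adjusted p = 1.9e-55). Here too DJ stood apart: the means of the 13 groups other than these 2 ran from 115 CPM in osythdf1a to 197 CPM in RNAi-OsYTHDC1A. Against osythdf3a the log2 fold change of osythdf2a was 0.03 (standard error 0.04, edgeR adjusted p = 0.52). LOC_Os07g06834 had 143 and 145 CPM in osythdf2a, against 3.48, 4.82 and 3.88 CPM in DJ, a log2 fold change of 5.04 (standard error 0.07, edgeR adjusted p = 1.3e-50). Its group means elsewhere spread from 0.144 CPM in NIP to 185 CPM in osythdf5c, so that neither osythdf2a nor DJ was at an end of the range.

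LOC_Os07g48040 had 5.38 and 5.99 CPM in osythdf2a, against 111, 114 and 112 CPM in DJ, a log2 fold change of -4.39 (standard error 0.06, edgeR adjusted p = 5.8e-48). It was high in the other lines labelled DJ, at 109 ± 4.6 CPM in osythdf1a and 91.2 ± 8.1 CPM in osythdf3a (SD, n = 3 each), and low in NIP, at 13.5 CPM on average. LOC_Os03g01940 had 90.3 and 90.8 CPM in osythdf2a, against 250, 249 and 257 CPM in DJ, a log2 fold change of -1.58 (standard error 0.04, edgeR adjusted p = 1.1e-35). Its group means in the other 13 groups ran from 186 to 348 CPM, all above osythdf2a.

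**Figure D3:**
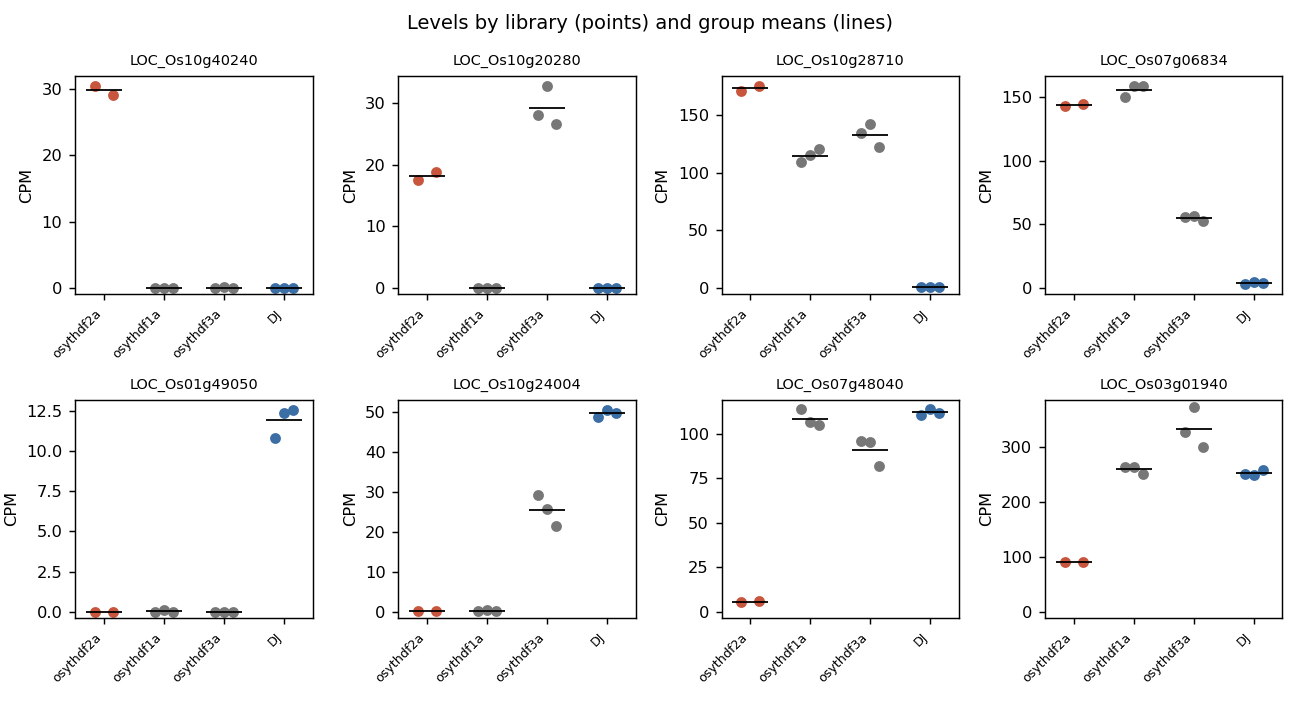
Points are the CPM of single libraries and lines the group means, for the 8 loci with the largest changes named by rule, with osythdf2a at the left, osythdf1a and osythdf3a in the middle and DJ at the right. The 2 osythdf2a libraries do not overlap the 3 DJ libraries in any panel, which the rule required. The lines osythdf1a and osythdf3a lie with osythdf2a in some panels (LOC_Os10g28710) and with DJ in others (LOC_Os07g48040).

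These loci differed in which group was unusual, and the same was counted for all genes by their mean CPM in the 13 groups other than osythdf2a and DJ. Of the 2125 genes at least 2-fold higher in osythdf2a, osythdf2a was above all 13 groups in 1232 (58.0%) and DJ was below all 13 in 150 (7.06%). Both held for 29 of them, and neither for 772 (36.3%). Of all genes tested, osythdf2a was above the 13 groups in 16.1% and DJ below them in 2.57%. Lower genes showed the other order: among the 1101, osythdf2a was below all 13 groups in 96 (8.72%) and DJ was above all 13 in 314 (28.5%), against 2.56% and 8.86% of all genes tested. The genes were chosen for the difference between osythdf2a and DJ, which favours a place at the end for either group, so these counts are a description. With TMM-scaled CPM osythdf2a was above all 13 in 1028 of the higher genes (48.4%), against 8.86% of all genes tested. DJ was then above all 13 in 297 of the lower genes (27.0%), against 6.86% of all. On that scale osythdf2a was below all 13 in 7.89% of all genes tested, so the shares over all genes depended on the scaling.

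A stricter count took features at least 2-fold outside every other library of the series, on CPM + 0.1. In osythdf2a 225 features lay above all 42 other libraries and 10 below. The other 14 groups, each counted with replicates 1 and 3, had between 7 (osythdf2b) and 130 (osythdf1a) features above all others, with a median of 29, and 0 to 80 below, with a median of 10.5. By library totals osythdf2a was thus at the top for features above the rest and in the middle for those below. With TMM-scaled CPM the counts in osythdf2a were 162 above and 14 below. The other groups were not counted on that scale, so the rank of osythdf2a there is not known. Of the 225, 204 had a locus ID, 100 were at no more than 1 CPM in all 42 other libraries, and the median level in osythdf2a was 5.01 CPM. Their locus IDs fell on all 12 chromosomes, with 29 on chromosome 1, where 3585 genes were tested, and 25 on chromosome 11, where 1454 were.

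The feature farthest outside was LOC_Os10g40240, described above. The next had no locus ID, with 62.7 and 64.0 CPM in osythdf2a, against 0.305, 0.219 and 0.377 CPM in DJ while no other group had a mean over 0.689 CPM. Its log2 fold change over DJ was 7.58 (standard error 0.16, edgeR adjusted p = 1.1e-40). Of those below, LOC_Os09g04420 had 0.19 CPM in both osythdf2a libraries, against 2.87, 3.29 and 2.75 CPM in DJ, and the other 13 group means were 2.15 CPM or more. LOC_Os07g09460 had 0.696 and 0.428 CPM in osythdf2a, against 5.98, 6.14 and 4.84 CPM in DJ, and the other 13 group means were 4.68 CPM or more. Their log2 fold changes over DJ were -4.01 (standard error 0.38, edgeR adjusted p = 5.1e-13) and -3.46 (standard error 0.28, edgeR adjusted p = 8.3e-15). LOC_Os03g41200, chosen after its values were seen, was among the 10 as well. It had 8.6 and 9.85 CPM in osythdf2a, against 80.2, 88.1 and 89.0 CPM in DJ, and 45.6 to 71.8 CPM as the means of the other 13 groups, so that both osythdf2a libraries were low where every other group was high.

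Some genes were on in 1 group and off in the other, where on means at least 1 CPM in every library and off at most 3 counts in every library. In all, 123 genes were on in osythdf2a and off in DJ, and 16 were off in osythdf2a and on in DJ. With 2 libraries osythdf2a meets either state more easily than DJ with 3. Of the 123, 70 were on in none of the other 13 groups, but only 12 were off in all 13, the rest of the 70 lying between the 2 states somewhere. By group, 7 (osythdf5c) to 23 (osythdf3c and osythdf4c) of the 123 were on, with 13 in NIP and 19 in osythdf3a. The locus IDs of the 123 were most frequent on chromosome 11 (17, with 1454 genes tested there) and chromosome 10 (14, with 1392 tested), and 19 had no locus ID. Of the 16, 10 were off in NIP too, where the 13 groups ran from 6 (osythdf3a) to 14 (OE-OsYTHDF1A), and 8 had no locus ID.

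Genes that differed between the wild types were followed in osythdf2a. A set of 504 genes was on in DJ but off in NIP, of which osythdf2a had 401 on (79.6%) and 10 off, with a median level of 2.65 CPM against 3.04 CPM in DJ. Of the same genes 154 (30.6%) were called at least 2-fold lower in osythdf2a and 29 (5.75%) higher, against 4.09% and 7.89% of all genes tested, and their median log2 fold change was -0.49. The set was picked for its level in DJ, which favours lower values in any other group, so these values are a description. The lines osythdf1a and osythdf3a, with 3 libraries each, had 152 and 176 of them on and 219 and 127 off, with median levels of 0.2 and 0.438 CPM. As these lines carry the DJ label too, the set cannot decide whether a label is right. Of 236 genes on in NIP and off in DJ, osythdf2a had 13 on and 180 off (76.3%), while osythdf1a had 160 off and osythdf3a 197. By its mean levels osythdf2a was nearest to DJ among the other 14 groups, with a median absolute log2 difference of 0.201 and 5.2% of genes over 2-fold. Next came RNAi-OsYTHDC1A at 0.221 and osythdf1b at 0.248, which are labelled NIP, while osythdf3a stood at 0.396, osythdf1a at 0.496 and NIP at 0.502. These distances used 17839 genes for DJ and 17111 to 17983 over the 14 groups, fewer than the 26925 tested. The 5.2% is therefore not comparable with the 12.0% of tested genes called at least 2-fold.

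Set directly against the other knockout lines labelled DJ, osythdf2a differed by more than from DJ. Against osythdf1a, 20248 genes were called (75.2%) by edgeR's quasi-likelihood test, 10690 higher in osythdf2a (39.7%) and 9558 lower (35.5%). At 2-fold or more 9899 were called (36.8%), 6205 higher in osythdf2a (23.0%) and 3694 lower (13.7%). Against osythdf3a, 19048 were called (70.7%), 9927 higher in osythdf2a (36.9%) and 9121 lower (33.9%). At 2-fold or more 8011 were called (29.8%), 5773 higher in osythdf2a (21.4%) and 2238 lower (8.31%). Without osythdf3a replicate 3, 18532 were called, and at 2-fold or more 5763 were higher and 2224 lower. Of the 2125 genes at least 2-fold higher in osythdf2a than in DJ, 945 (44.5%) were so against osythdf1a and osythdf3a as well, and of the 1101 lower genes 261 (23.7%). These comparisons share the osythdf2a libraries. The share of all genes tested that differed so from both lines was not computed, so 44.5% and 23.7% stand without a background.

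The leading loci of the direct comparisons were often unlike DJ only in 1 of the lines. LOC_Os10g30240 averaged 60.4 ± 3.2 CPM in osythdf2a (SD, n = 2) and had 1 count in osythdf1a, a ratio of 3330 with an exact counting interval of 597 to 132000, and it was at 0.167 CPM in DJ. LOC_Os06g43150 had 1 count in osythdf2a and 25.2 ± 1.3 CPM in osythdf1a (SD, n = 3), a ratio of 930 in the other direction with an interval of 167 to 36800. LOC_Os02g14440 averaged 0.182 CPM in osythdf2a, 118 ± 1.5 CPM in osythdf1a (SD, n = 3) and 6.59 CPM in DJ. Osythdf2a was the low line there and osythdf1a the high one, with DJ between them.

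Against osythdf3a, LOC_Os10g05820 averaged 8.08 ± 0.88 CPM in osythdf2a (SD, n = 2), with no count in osythdf3a, at least 143-fold higher. LOC_Os04g11120 averaged 7.55 ± 0.22 CPM in osythdf2a (SD, n = 2), with no count in osythdf3a, at least 133-fold higher, and DJ was above both at 20.5 CPM. LOC_Os11g01310 had no count in osythdf2a or DJ, against 25.6 ± 2.1 CPM in osythdf3a (SD, n = 3), at least 317-fold lower in osythdf2a. LOC_Os07g02430 averaged 0.103 CPM in osythdf2a, 176 ± 14 CPM in osythdf3a (SD, n = 3) and 0.059 CPM in DJ. At the last 2 loci osythdf2a and DJ were both low, and osythdf3a alone of these groups was high.

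Along the genome, the share of genes at least 2-fold higher in osythdf2a than in DJ was 11.3% on chromosome 11 (164 of 1454 genes) and 10.8% on chromosome 10 (151 of 1392). The other chromosomes had 6.22% (chromosome 3) to 8.75% (chromosome 7), against 7.89% of all genes tested, and features without a locus ID had 11.1%. Shares of lower genes ran from 3.29% on chromosome 5 to 4.81% on chromosome 10, against 4.09% of all genes tested. With library totals 181 genes on chromosome 11 and 163 on chromosome 10 were higher. The differences between chromosomes were not tested.

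**Figure D4:**
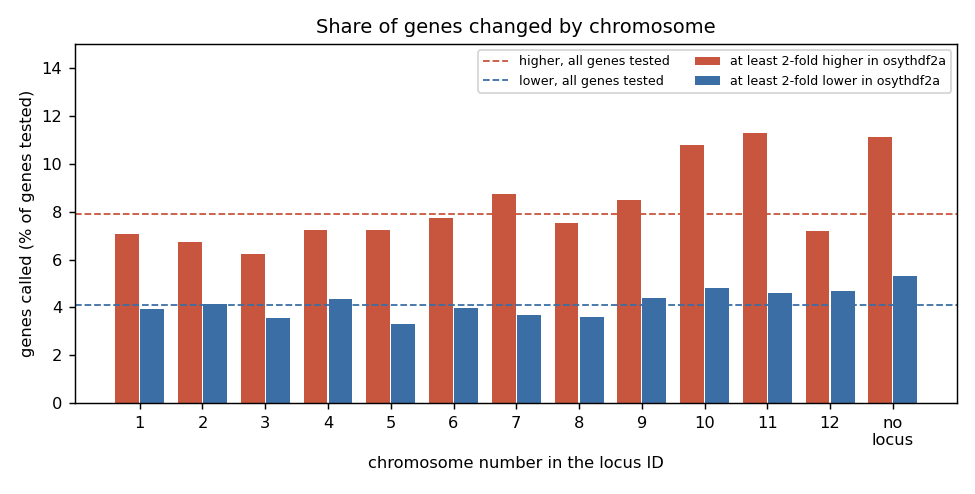
Bars give the percentage of tested genes called at least 2-fold higher or lower in osythdf2a than in DJ, by the chromosome number in the locus ID, and dashed lines give the shares of all genes tested, 7.89% and 4.09%. Chromosomes 10 and 11 and the features without a locus have the tallest bars for higher genes.

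Of 1952 loci at least 2-fold higher than in DJ and followed by a tested locus on the same chromosome, 366 (18.8%) had a next locus that was higher too, while 7.7% of all 25366 loci were higher. For lower loci the share was 5.9% (60 of 1017), against 4.01% of all. Against osythdf1a 29.7% of next loci were higher too, while 23.2% of all loci were higher, and 21.8% of loci next to a lower one were lower too, while 13.5% of all were lower. Against osythdf3a these shares were 27.9% and 21.6% for higher loci, and 14.3% and 8.12% for lower ones. Next loci thus had a higher share in the same direction than all loci in each of these comparisons, and no difference between the shares was tested. Against DJ, higher loci formed 70 runs of 3 or more in a row, of which 50 held 3 loci and the longest 7, and lower loci formed 7 runs of 3. In 500 windows of 50 tested loci, the number changed at least 2-fold had a median of 6 and ran from 0 to 17. The window with 17, from LOC_Os11g30560 to LOC_Os11g32490, had 14 higher and 3 lower, and the next, from LOC_Os10g30750 to LOC_Os10g32030, had 12 higher and 4 lower. Whether counting used strand is not given in the sources used here, so neighbours that overlap, or that are near-identical copies, may share reads in these counts.

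The run of 7 loci lay on chromosome 10, from LOC_Os10g31640 to LOC_Os10g31730, and like the runs below was singled out after its values were seen. LOC_Os10g31680 within it had 21.6 and 22.1 CPM in osythdf2a, against 0.122 CPM in DJ replicate 1 and 0 in replicates 2 and 3. LOC_Os10g31660, with 22.1 and 25.8 CPM in osythdf2a, against 7.02, 5.81 and 5.76 CPM in DJ, was the member with the smallest log2 fold change, 1.86. All 7 had both osythdf2a libraries above all 3 DJ libraries, with log2 fold changes up to 8.95 and adjusted p-values of 9.4e-13 or less by edgeR's quasi-likelihood test. In osythdf1a the means of the 7 loci were 0.0563 to 2.67 CPM and in NIP 0.028 to 0.571 CPM, low like DJ. In osythdf3a they were 0.233 to 18.8 CPM, so that some of the 7 were raised there as well. Each of the 7 was on, as defined above, in at least 1 of the 13 groups other than osythdf2a and DJ. LOC_Os10g31670 was on in 1 of them, LOC_Os10g31680 in 5 and LOC_Os10g31660 in 6, so expression of these loci was not confined to osythdf2a. Being on does not mean being raised, since DJ itself was on at LOC_Os10g31660. Of the 7, only LOC_Os10g31640 was at least 2-fold above all 42 other libraries of the series. It had 13.4 and 12.9 CPM in osythdf2a, against at most 4.97 CPM in any other library.

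**Figure D5:**
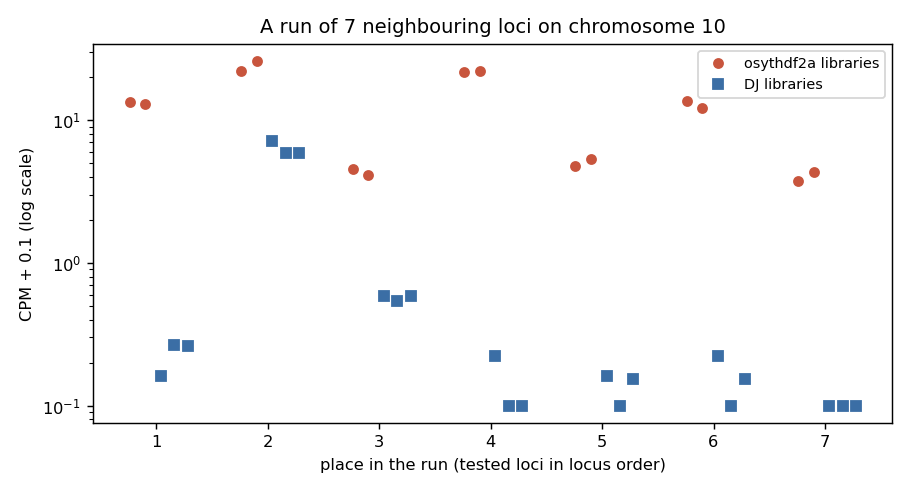
Points are the CPM + 0.1 of single libraries on a log y axis, for the 7 consecutive tested loci from LOC_Os10g31640 to LOC_Os10g31730, with osythdf2a left of DJ at each place. The osythdf2a libraries lie between 3.67 and 25.8 CPM, and the DJ libraries between 0 and 7.02 CPM, below osythdf2a at every place.

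Another stretch of chromosome 10, from LOC_Os10g05820 to LOC_Os10g06000, held 12 tested loci, of which 11 were at least 2-fold higher in osythdf2a. The remaining one, LOC_Os10g05940, averaged 7.39 CPM in osythdf2a and 4.23 CPM in DJ, a log2 fold change of 0.70 (edgeR adjusted p = 0.00037). The 5 loci from LOC_Os10g05950 on had 30.8 to 90.6 CPM in the osythdf2a libraries and 1.29 to 9.95 CPM in the DJ libraries, with log2 fold changes of 3.11 to 4.19. In NIP the same 5 loci averaged 32.2 to 949 CPM, and in osythdf1a and osythdf3a 0.394 to 2.71 CPM. The osythdf2a mean lay between those of DJ and NIP at all 5. These 5 loci were on, as defined above, in 9 to 12 of the 13 groups other than osythdf2a and DJ. At the 6 loci from LOC_Os10g05820 to LOC_Os10g05930 the osythdf2a mean was instead above those of both DJ and NIP. At LOC_Os10g05820 the means were 8.08 CPM in osythdf2a, 2.3 CPM in DJ and 1.32 CPM in NIP. LOC_Os10g05970 had 82.4 and 84.9 CPM in osythdf2a, against 9.95, 8.66 and 8.5 CPM in DJ and 949 CPM as the mean of NIP. At LOC_Os10g05950 the means were 31.9 CPM in osythdf2a, 1.61 CPM in DJ and 32.2 CPM in NIP.

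The 1 ID paired with a name was LOC_Os01g19850, OsCCC2, a cation chloride cotransporter, of a family that carries chloride across membranes together with potassium or sodium. It had 3.67 and 2.95 CPM in osythdf2a (1.53 and 1.23 FPKM, which also divides by gene length), against 1.77, 1.75 and 2.37 CPM in DJ. The groups did not overlap, and the log2 fold change of 0.63 (standard error 0.25) passed edgeR's quasi-likelihood test with an adjusted p of 0.028. The call was lost without osythdf2a replicate 1 (log2 fold change 0.48, adjusted p = 0.23), without DJ replicate 1 (0.57, adjusted p = 0.082), without DJ replicate 2 (0.56, adjusted p = 0.099) and with DESeq2 (0.64, adjusted p = 0.12). Against the other knockouts OsCCC2 was higher in osythdf2a by log2 fold changes of 2.50 (standard error 0.32, edgeR adjusted p = 8e-10) over osythdf1a and 1.98 (standard error 0.30, edgeR adjusted p = 7.8e-08) over osythdf3a, whose means were 0.448 and 0.656 CPM. Its mean in osythdf2a, 3.31 CPM, stood above the means of the other 14 groups, of which osythdf1b was next at 2.72 CPM.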

How the data were processed

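Libraries were paired-end and made with a NEBNext Ultra kit from DNase-treated seedling RNA, per the labels' protocols. Per the submitters' processing notes, HISAT2, featureCounts and the build IRGSP-1.0 were used. Their versions and settings, and any use of strand, were not given in the sources used here. The authors deposited whole-number counts per gene and FPKM, which equal the count divided by the column total and a fixed gene length. Each table has 58089 rows and 40 unused columns that belong to no sample here. Gene names came from a RefSeq gene table (assembly ASM3414082v1), which paired 1 ID through a synonym. Features without a locus ID held 1.94% to 1.98% of the counts in the 5 libraries.

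Counts of the 11 libraries labelled DJ were tested in 1 fit with edgeR 4.0.16 (R 4.3.3): TMM, filterByExpr, robust two-sided quasi-likelihood test, Benjamini-Hochberg adjustment over 26925 genes. The biological coefficient of variation was 5.39%. The standard error is the size of the log2 fold change divided by the square root of F. Named by rule were the 2 largest changes each way that were called, had non-overlapping libraries and reached a mean of 5 CPM in either group, the same at 100 CPM, the 2 features farthest outside all groups each way, and IDs with a name. Intervals (95%, exact) and floors of 3 counts cover counting error only. The groups compared, the rules and the descriptions were chosen with earlier results of these data known. The script was tested on simulated data. Alternatives were other scalings, no filter, DESeq2 1.42.0, limma 3.58.1 on log2 FPKM with a pseudocount of 1 or 0.1 and a minimum of 0.5 FPKM, a replicate block, and leaving out libraries. The TMM-scaled standing among groups, neighbours under other fits and osythdf3a without replicate 3 were added after seeing the data.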

Additional observations from a re-analysis of the deposited data

How the results depend on the processing

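Of the counts and medians recomputed, 117 settings left the value within the range set for it and 20 moved it. Against 13956 genes called, limma on log2(FPKM + 0.1) called 9099. EdgeR's test against a 2-fold minimum called 1328, where 3226 were called against no change with a fitted change of at least 2-fold. Against 8329 lower genes, library totals gave 4895, limma on log2(FPKM + 1) 4451 and on log2(FPKM + 0.1) 3632. Against 3226 genes of at least 2-fold, limma on log2(FPKM + 1) gave 1247 (946 higher, 301 lower), a scale that understates the change of low genes. The median log2 fold change, -0.066, was -0.069 with DESeq2 size factors, -0.068 with DESeq2, 0.033 with library totals, 0 with no filter, 0.002 with the 5 libraries alone, 0.028 and 0.035 with limma at the pseudocounts 1 and 0.1, and -0.071 to -0.064 when libraries were left out in turn. Features outside all other groups numbered 67 above and 4 below at 4-fold. The cause was not tested where the construction of the setting does not give it. With a replicate block 13637 genes were called. The shared numbers 1 and 3 had correlations of deviations of 0.106 and 0.165. With 2 osythdf2a libraries the deviations of 1 mirror those of the other, so these values cannot decide whether the numbers pair the libraries. Of the settings for single loci, 177 kept direction and call and 5 lost the call, all for OsCCC2; the fifth was limma on log2(FPKM + 0.1) (0.69, adjusted p = 0.1). Neighbours of higher loci were higher too at 17.6% (DESeq2) to 19% (library totals). Of genes under 1 CPM 33.1% were called, and of genes at 100 CPM or more 74.8%; these genes also differed in median log2 fold change (0.30 and -0.13), and the part of depth in the called shares was not tested.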
